A study of Mus musculus with 18 samples.

Results

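Bone marrow-derived macrophages that lack EED were compared with WT macrophages after both had been primed with lipopolysaccharide (LPS), the bacterial cell wall glycolipid. The genes described are every row of the authors' 2 lists for this state, higher and lower in EED KO cells, without further selection. They number 377 of the 1023 rows that the authors deposited for the 3 states of the series, beside 227 rows for unstimulated and 419 rows for LPS tolerant macrophages. The EED KO group came from Eed fl/fl mice with 1 LysM-Cre allele (LysM-Cre+/-), and the WT group from littermate controls. Whether the controls carried floxed alleles or Cre, and the mice's strain, age and sex, are not stated in the sources read. Each group has 3 RNA-seq libraries, and all 6 cultures received Salmonella LPS at 100 ng/ml for 24 h. LysM-Cre is driven from the Lyz2 locus, which is active in macrophages, neutrophils and their progenitors, so the deletion precedes the LPS exposure. The label of WT LPS primed replicate 1 lacks the remark tying the other 5 libraries to this comparison, so whether it entered the authors' test is not known. Nothing states that the 3 libraries of a group came from separate mice, and the p-values then reflect the spread among libraries that may be technical repeats.

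EED belongs to the core of Polycomb repressive complex 2 (PRC2), an enzyme complex that places methyl groups on lysine 27 of histone H3. EED binds the trimethylated form of that mark and stimulates the EZH1 or EZH2 enzyme, and PRC2 keeps many developmental genes silent in differentiated cells. LPS is sensed by TLR4, which activates inflammatory genes through NF-kappaB and, through IRF3, interferon beta. Secreted interferon then acts back on the macrophage and switches on interferon-stimulated genes and, with interferon gamma, the genes of antigen presentation.

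Of the 377 listed genes, 301 were higher and 76 were lower in EED KO cells, so 79.8% of the rows were higher. At an adjusted p under 0.05 in the authors' deposited table, 104 rose and 21 fell, which is 33.2% of the listed rows in either direction, 27.6% higher and 5.57% lower. Those shares are of a list that the authors had already selected, in which no row has an absolute log2 fold change under 0.75 or an unadjusted p above 0.0497. The other 252 rows did not pass, and 26 of them had an adjusted p of 1. The median log2 fold change was 1.09 over the higher rows and -0.90 over the lower rows. Just inside the threshold stood Dst and Gm39701, both at 0.0498 in the authors' deposited table, and just outside it Maged2 with 0.0525. Errors printed after ± are approximate SEs derived from the deposited p-values. The authors ran far more tests than there are genes, so a row may stand for part of a gene. No values per library were available, so overlap between the groups, level and depth are unknown.

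The targeted gene was in the lower list: Eed stood at a log2 fold change of -3.59 ± 0.28 in the authors' deposited table (adjusted p = 1.46e-32). Which genotype came first in the contrast was read from Eed itself, so its sign is no check of the labels. The other fixed PRC2 genes, 12 of 13, were not among the listed rows. Lyz2, the lysozyme gene into which Cre is inserted, fell with -1.19 ± 0.22 in the authors' deposited table (adjusted p = 5.36e-05). Its near-identical neighbour Lyz1 fell with -1.71 ± 0.26 in the authors' deposited table (adjusted p = 7.21e-08), and reads may be split between these copies. An effect of the inserted Cre on Lyz2 and an effect of EED loss cannot be told apart here. Within 50 protein-coding genes to each side of Eed, 4 genes were listed, namely Ctsc, Usp35, Tsku and Dgat2. All were higher, as were 79.8% of all listed rows, and only Tsku passed (adjusted p = 0.000811 in the authors' deposited table). In the same window around Lyz2, Lyz1 and Hmga2 were listed. Both were lower, and Hmga2 did not pass, at -0.87 in the authors' deposited table (adjusted p = 0.654). Whether genes near either locus were listed more often than others was not tested.

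The gene with the lowest adjusted p encodes Cxcl13, the chemokine that draws B cells and follicular T cells through the receptor CXCR5. Its log2 fold change was 5.46 ± 0.37 in the authors' deposited table, a 43.9-fold difference (adjusted p = 1.5e-42). Next among the rising genes came Mast4, a microtubule-associated kinase, with 3.09 ± 0.31 in the authors' deposited table (adjusted p = 1.32e-19). F13a1, the catalytic chain of coagulation factor XIII, stood at 3.40 ± 0.36 in the authors' deposited table (adjusted p = 7.14e-17). These 3 genes, of a chemokine, a kinase and a coagulation factor, differ in function. The largest fall was that of H2-Q1, a class Ib histocompatibility gene, at -9.45 ± 1.73 in the authors' deposited table (adjusted p = 3.72e-05). H2-Q genes are close copies of one another and differ between mouse strains, so its reads may have been assigned to other copies.

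**Figure D1:**
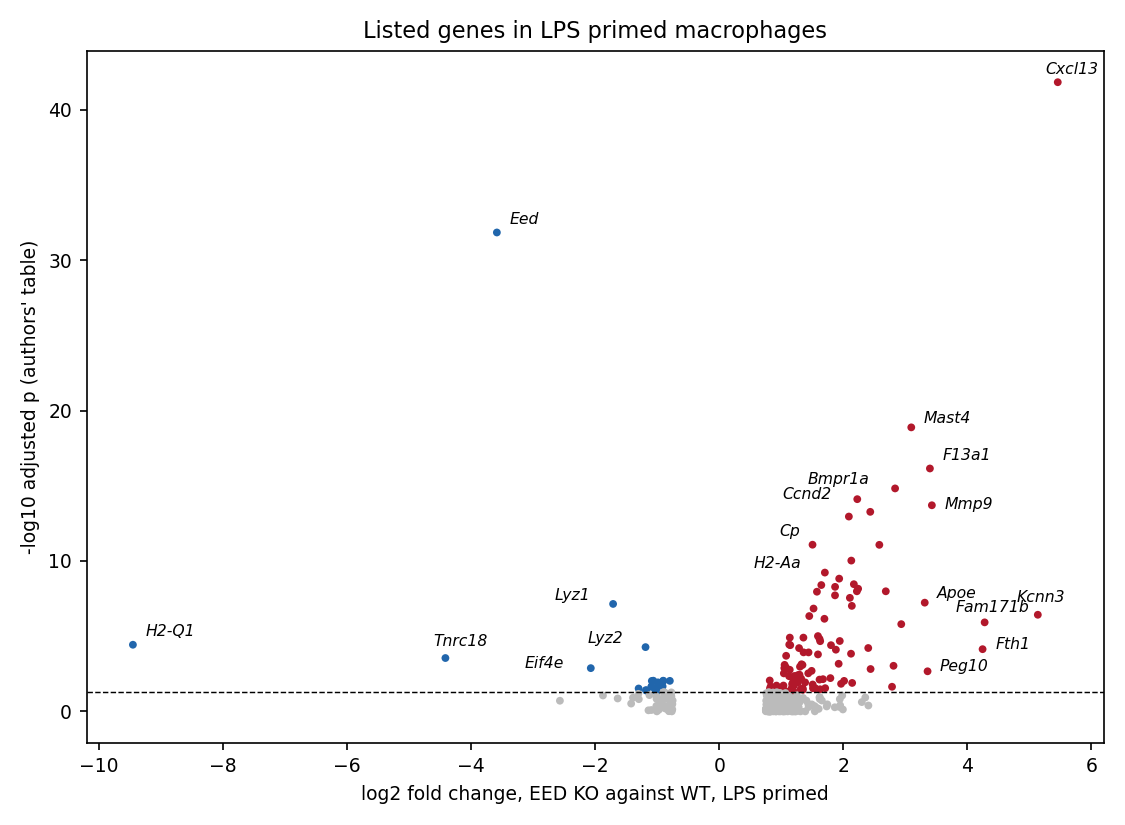
Each point is 1 of the 377 listed rows, with its log2 fold change (EED KO against WT, LPS primed) on the x axis and the -log10 adjusted p of the authors' table on the y axis; red points rose, blue points fell, grey points did not pass, and the dashed line is at an adjusted p of 0.05. Red points outnumber blue ones 104 to 21, with Cxcl13 at the top right and Eed the highest of the blue points.

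The genes were sorted into 13 role classes after the list was seen, as a description only. For comparison, 79.8% of all listed rows were higher, 27.6% rose and 5.57% fell. Growth factor and developmental signalling had 15 of 39 rows that rose and 1 that fell. Adhesion and cytoskeleton had 13 of 33 that rose, and neuronal genes and ion channels 12 of 27 with 1 that fell. Complement, coagulation, matrix and proteases had 11 of 26 that rose and 2 that fell, with the highest class median, 1.26. In contrast, the interferon-inducible class was higher in all 39 rows, but 4 rose and 12 had an adjusted p of 1. Translation was the class with more lower than higher rows, 5 against 2, and a median log2 fold change of -0.89.

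**Figure D2:**
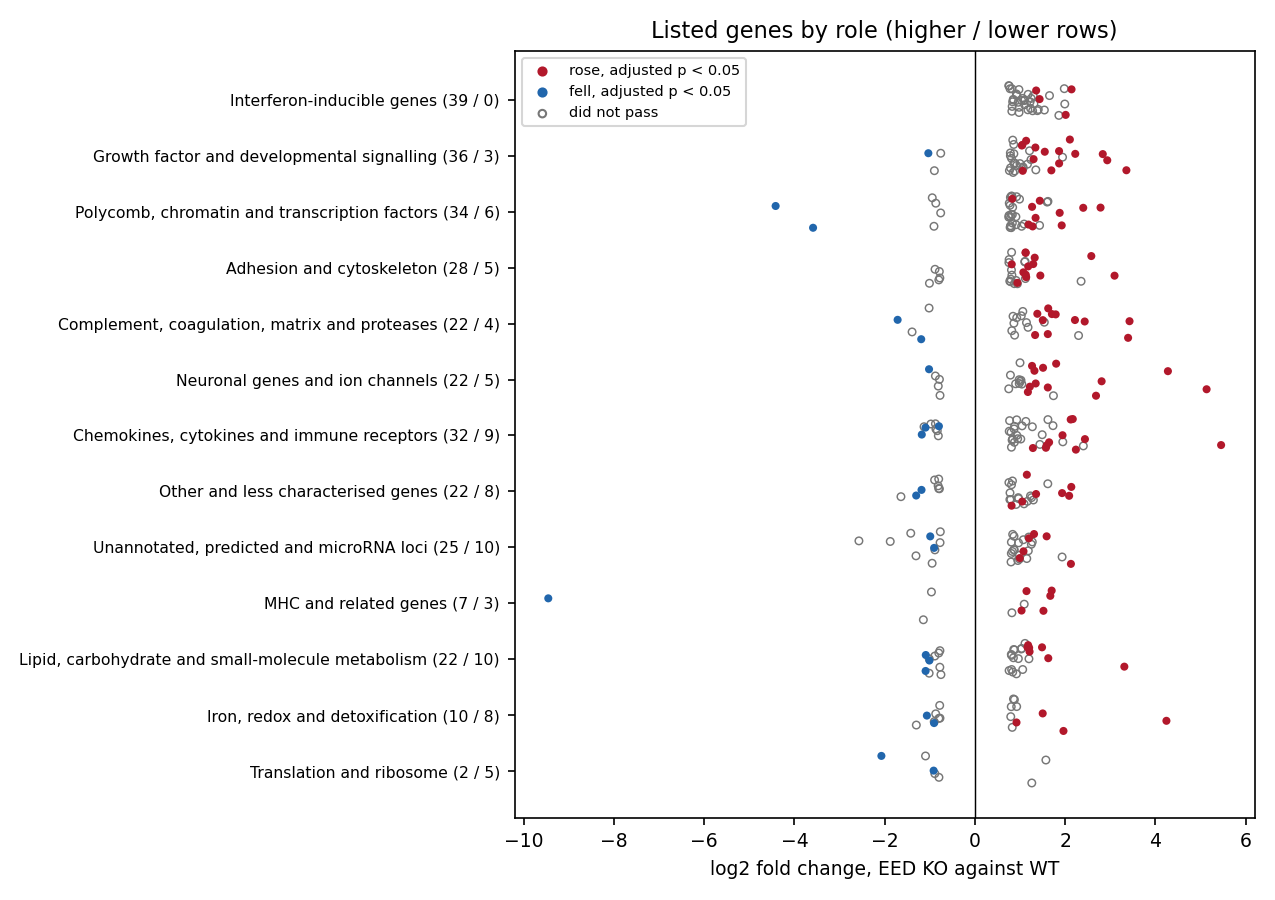
Each point is 1 listed row by role class, with its log2 fold change (EED KO against WT, LPS primed) on the x axis; red points rose, blue points fell and grey points did not pass an adjusted p of 0.05 in the authors' table. All 39 points of the interferon-inducible class lie to the right of 0 and most are grey, while translation has most of its points to the left.

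Among chromatin regulators and transcription factors, 10 of 40 rows rose and 2 fell. Of 20 fixed genes of PRC1, the companion complex that binds the PRC2 mark, 2 were listed and both rose. Bmi1, the gene of a core PRC1 ring finger subunit, stood at 0.83 ± 0.20 in the authors' deposited table (adjusted p = 0.0219). Cbx6, which encodes a chromobox reader of the mark, stood at 1.34 ± 0.34 in the authors' deposited table (adjusted p = 0.0296). Sall2, a zinc finger factor of neural development, rose by 1.92 ± 0.39 in the authors' deposited table (adjusted p = 0.000685). Of 36 fixed developmental Polycomb targets, 7 were listed, 5 higher and 2 lower, and 3 rose, Bmpr1a and Peg10 among them. Beside the PRC1 and Polycomb target counts, 79.8% of all listed rows were higher and 27.6% rose. In all, 282 of 17492 protein-coding genes with a promoter in RefSeq were listed.

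Several blood lineage factors were in the same class. Runx3, which acts in T cells and Langerhans cells, rose by 1.88 ± 0.35 in the authors' deposited table (adjusted p = 7.93e-05). Ets1, a lymphocyte factor, rose by 1.44 ± 0.28 in the authors' deposited table (adjusted p = 0.00012). Myb, needed in haematopoietic progenitors, rose by 2.78 ± 0.69 in the authors' deposited table (adjusted p = 0.0231). Plag1, a fetal growth factor regulator, rose by 1.19 ± 0.29 in the authors' deposited table (adjusted p = 0.0141). These factors are best known from lymphoid, progenitor or fetal cells. The DNA demethylase gene Tet1 stood at 1.60 in the authors' deposited table and did not pass (adjusted p = 0.684). The same held for Kdm5b, a histone H3 lysine 4 demethylase gene, at 0.76 in the authors' deposited table (adjusted p = 0.196). The X inactivation RNA Xist and its antisense partner Tsix stood in the authors' deposited table at 0.83 and 0.78, and neither passed (adjusted p = 0.846 and 0.637). Of the genes in this class that fell, Tnrc18, a chromatin protein gene, stood at -4.42 ± 0.87 in the authors' deposited table (adjusted p = 0.000285) and Eed was the other.

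Chemokines, cytokines and immune receptors made up 41 rows, 10 of which rose and 3 fell. Of 28 fixed chemokine genes, 6 were listed and 2 rose, Cxcl13 and Cxcl14, the latter with 1.57 ± 0.23 in the authors' deposited table (adjusted p = 1.11e-08). The monocyte attractants Ccl12 and Ccl8 stood in the authors' deposited table at 1.73 and 0.80 and did not pass (adjusted p = 0.47 and 0.916). Ccl6 and the neutrophil attractant Cxcl1 were in the lower list, at -1.13 and -0.81 in the authors' deposited table (adjusted p = 0.0828 and 0.972). Both chemokine genes that passed were thus higher, while 27.6% of all listed rows rose and 5.57% fell.

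Cx3cr1, the fractalkine receptor of monocytes and resident macrophages, rose by 2.24 ± 0.32 in the authors' deposited table (adjusted p = 7.03e-09). Fcrls, known in mouse as a microglial gene, rose by 1.94 ± 0.35 in the authors' deposited table (adjusted p = 2.1e-05). Tmem119, another gene used to mark microglia, rose by 1.59 ± 0.31 in the authors' deposited table (adjusted p = 0.000163). Olfml3, also known from microglia, was higher but did not pass, at 1.44 in the authors' deposited table (adjusted p = 0.514). Fcrls, Tmem119 and Olfml3 were on no fixed list, so the 3 that rose do not stand for macrophage identity genes as a set. On the fixed list of 30 monocyte and macrophage identity genes, F13a1, Cx3cr1 and Ly6c2 rose, Lyz1 and Lyz2 fell, and Ly6c1 did not pass.

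Il23r, a receptor chain for interleukin 23, rose by 1.64 ± 0.23 in the authors' deposited table (adjusted p = 4.01e-09). Marco, which binds bacteria and particles at the cell surface, rose by 1.29 ± 0.24 in the authors' deposited table (adjusted p = 6.22e-05). Ptgs1, the constitutive cyclooxygenase, rose by 2.12 ± 0.41 in the authors' deposited table (adjusted p = 0.000147). On the lower side, Il7r, a receptor of lymphocytes that LPS also induces in some myeloid cells, fell, with a log2 fold change of -1.18 in the authors' deposited table (adjusted p = 0.0419). Bst1, an ectoenzyme of myeloid and stromal cells, fell, with a log2 fold change of -0.80 in the authors' deposited table (adjusted p = 0.00935). The kinase genes Syk, Jak2 and Ripk3 and the interleukin 4 receptor gene Il4ra were higher, with log2 fold changes from 0.81 to 0.88 in the authors' deposited table, but these 4 did not pass.

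Few mediators that define the LPS response were listed, but few genes of any kind were. Of 17492 protein-coding genes with a promoter in RefSeq, 282 were listed, so the counts are not read as a lack of mediators. Of 29 fixed pro-inflammatory genes, the acute-phase genes Saa1 and Saa2 were listed, at 1.49 and 1.95 in the authors' deposited table, and neither passed (adjusted p = 0.344 and 0.396). None of 29 fixed TLR pathway genes was listed. Of 25 fixed regulators of LPS tolerance, Dusp4, a phosphatase that dampens MAP kinases, was listed, at -0.90 in the authors' deposited table (adjusted p = 0.119). A gene that is not listed has no value here, and its absence does not show that it was alike in both genotypes.

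Of 15 fixed genes of class II antigen presentation, 4 were listed, all higher, and 3 rose (79.8% and 27.6% of all listed rows). H2-Aa, the alpha chain of I-A, stood at 1.70 ± 0.23 in the authors' deposited table, a 3.25-fold difference (adjusted p = 5.93e-10). H2-Eb1, the beta chain of I-E, stood at 1.52 ± 0.24 in the authors' deposited table (adjusted p = 1.46e-07). Cd74, the invariant chain that guards the binding groove, stood at 1.14 ± 0.21 in the authors' deposited table (adjusted p = 3.98e-05). H2-Ab1, the beta chain of I-A, was higher at 1.09 ± 0.34 in the authors' deposited table and did not pass (adjusted p = 0.189). Ciita, the factor that drives these genes, was not listed. H2-Ab1, H2-Aa and H2-Eb1 lie next to one another on chromosome 17.

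Class I genes went both ways. H2-Q10, which encodes a secreted class I molecule, rose by 1.67 ± 0.39 in the authors' deposited table (adjusted p = 0.00723), while H2-Q1 fell as given above. H2-Q2 and H2-K2 were lower, at -0.96 and -1.14 in the authors' deposited table, and did not pass (adjusted p = 0.37 and 0.85). These are near-identical copies, and how reads that match several were handled is not stated.

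Class II promoters carry a Y box, bound by the NF-Y factor, beside the elements that recruit CIITA. The 250 bases before the gene start of the 2 class II chain genes that rose are shown because both hold its letters, with the 8 bases CTGATTGG (either strand, its reverse complement is CCAATCAG) in capitals. They come from RefSeq on GRCm38.p6, an older build than the GRCm39 of the authors' processing, at chr17:34287824-34288073 on the minus strand for H2-Aa and chr17:34305617-34305866 on the plus strand for H2-Eb1.
H2-Aa: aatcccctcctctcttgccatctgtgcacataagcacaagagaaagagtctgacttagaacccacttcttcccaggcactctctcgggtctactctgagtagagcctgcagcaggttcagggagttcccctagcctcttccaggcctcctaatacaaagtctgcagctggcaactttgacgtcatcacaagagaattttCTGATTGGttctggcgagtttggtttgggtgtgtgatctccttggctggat
H2-Eb1: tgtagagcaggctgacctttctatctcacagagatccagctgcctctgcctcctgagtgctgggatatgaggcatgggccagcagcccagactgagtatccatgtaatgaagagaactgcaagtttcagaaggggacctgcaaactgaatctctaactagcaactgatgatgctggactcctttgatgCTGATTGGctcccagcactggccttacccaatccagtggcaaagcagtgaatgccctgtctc
Of 10 listed MHC and related genes, 6 had a promoter in the RefSeq table and these 2 held the 8 letters. They are the class II genes among the 6. Of all 17492 protein-coding promoters in the table, 5.59% held the letters. The letters were chosen as the Y box of class II promoters, so this share says nothing of EED. A match is a description of the sequence, not evidence of binding.

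Interferon-inducible genes formed 39 rows, every one of them higher (median log2 fold change 1.11), but single genes were seldom past the threshold. Of all listed rows, 79.8% were higher. The class was drawn up after the list was seen, and class I genes, most of them lower, were sorted under MHC. The shared direction of the class may thus depend partly on the sorting. Of 20 fixed interferon-induced GTPase genes, 11 were listed and 1 rose. Of 77 other fixed interferon-stimulated genes, 13 were listed and 2 rose. Beside these counts, 27.6% of all listed rows rose, and 282 of 17492 protein-coding genes with a promoter in RefSeq were listed. Gbp5, a guanylate-binding protein that attacks intracellular pathogens and promotes inflammasome assembly, rose by 1.36 ± 0.26 in the authors' deposited table (adjusted p = 0.000119). The other listed guanylate-binding genes, Gbp2, Gbp3, Gbp4, Gbp7 and Gbp9, lay between 0.76 and 1.40 in the authors' deposited table and did not pass. The nearest to the threshold was Gbp7, at 0.98 ± 0.26 in the authors' deposited table (adjusted p = 0.0592). Gbp3 and Gbp4 carry the same Ensembl identifier in the file, as do Tgtp1 and Tgtp2, so these pairs may not be separate measurements.

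The immunity-related GTPases Iigp1, Tgtp1 and Tgtp2 stood, in the authors' deposited table, at 1.86, 1.10 and 1.06, with no call (adjusted p = 0.535, 1 and 1). Rsad2, which encodes the antiviral enzyme viperin, stood at 1.31 ± 0.64 in the authors' deposited table (adjusted p = 1). Its neighbour Cmpk2, a mitochondrial nucleotide kinase gene, stood at 1.24 ± 0.61 in the authors' deposited table (adjusted p = 1). Mx1 and Mx2, dynamin-like antiviral GTPases, stood in the authors' deposited table at 1.18 and 0.82 (adjusted p = 1 for both). The SEs of these genes were large against their fold changes. The interferon-inducible genes that rose beside Gbp5 were Mndal, a nuclear DNA-binding family member, Ly6c2, the monocyte surface antigen, and the predicted gene F830016B08Rik. They stood, in the authors' deposited table, at 2.14, 2.01 and 1.43 (adjusted p = 0.0129, 0.00941 and 0.00295). Ly6c1, a near copy of Ly6c2, stood at 1.98 ± 0.55 in the authors' deposited table (adjusted p = 0.088).

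**Figure D3:**
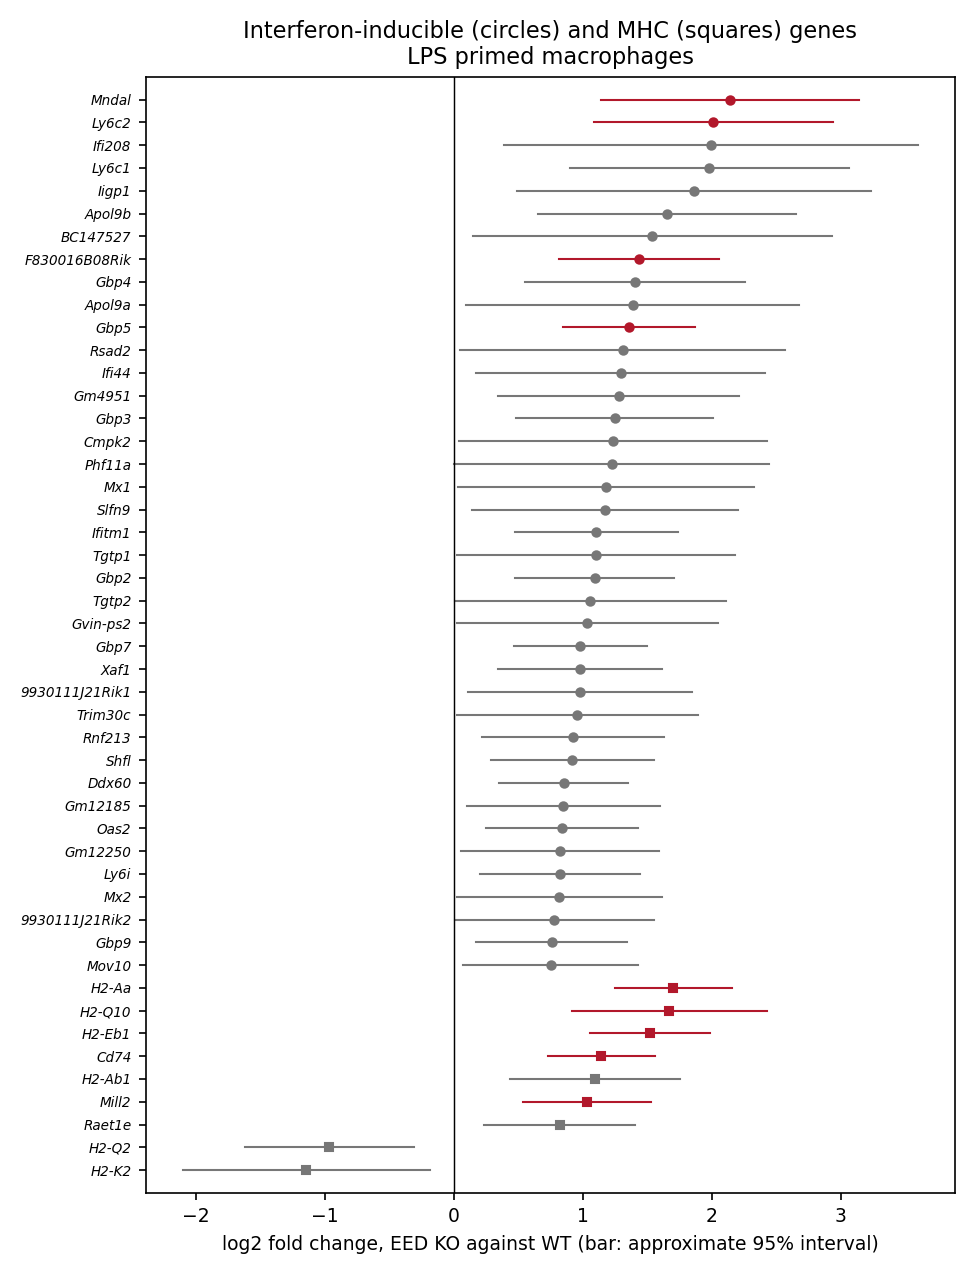
Points are the log2 fold changes (EED KO against WT, LPS primed) of the interferon-inducible and MHC genes, with bars for approximate 95% intervals derived from the deposited p-values; H2-Q1, at -9.45, is left out. Red symbols rose and grey symbols did not pass an adjusted p of 0.05. Every interferon-inducible gene lies to the right of 0, with several of the grey intervals reaching close to 0.

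Interferon-stimulated genes are switched on through the interferon-stimulated response element, whose core is GAAA, 2 further bases and GAAA. The 250 bases before 3 of these genes are shown because Gbp5 rose, while Gbp2 and Rsad2 did not pass although they hold the same core. Capitals mark these 10 bases, or their reverse complement (TTTC, 2 bases, TTTC) where the core lies on the other strand (RefSeq, GRCm38.p6; Gbp5 at chr3:142496684-142496933 plus, Gbp2 at chr3:142620413-142620662 plus, Rsad2 at chr12:26456453-26456702 minus).
Gbp5: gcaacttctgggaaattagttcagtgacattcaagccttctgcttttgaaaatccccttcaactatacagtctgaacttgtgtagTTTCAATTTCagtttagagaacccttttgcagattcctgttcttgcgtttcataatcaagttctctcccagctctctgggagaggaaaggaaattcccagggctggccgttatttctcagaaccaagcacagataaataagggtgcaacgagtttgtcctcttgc
Gbp2: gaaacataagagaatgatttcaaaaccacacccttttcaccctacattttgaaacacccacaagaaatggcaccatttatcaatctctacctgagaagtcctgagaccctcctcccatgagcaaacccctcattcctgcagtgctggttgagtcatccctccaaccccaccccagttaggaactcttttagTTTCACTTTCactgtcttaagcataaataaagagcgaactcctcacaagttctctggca
Rsad2: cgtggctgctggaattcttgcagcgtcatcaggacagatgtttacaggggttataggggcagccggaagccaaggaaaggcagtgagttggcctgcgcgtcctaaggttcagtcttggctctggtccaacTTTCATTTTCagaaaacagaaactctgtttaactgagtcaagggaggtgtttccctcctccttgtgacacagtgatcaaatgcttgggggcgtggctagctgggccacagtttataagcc
Of the 39 interferon-inducible genes, 28 had a promoter in the RefSeq table, too few to describe the whole class. The core was found in 18 of those 28 (64.3%), against 3.99% of all promoters in the table; the class was drawn up from known interferon genes, so this share says nothing of EED. Cmpk2, Ifi44, Xaf1 and Ly6c2 were among the 10 without it.

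Coagulation, matrix and protease genes held some of the largest increases. Mmp9, the gelatinase that cleaves basement membrane collagen, rose by 3.43 ± 0.39 in the authors' deposited table, a 10.8-fold difference (adjusted p = 1.99e-14). Adam19, a membrane-bound sheddase, rose by 2.43 ± 0.28 in the authors' deposited table (adjusted p = 5.44e-14). Mmp13, a collagenase, rose by 1.62 ± 0.37 in the authors' deposited table (adjusted p = 0.00771), whereas Mmp2, another gelatinase, stood at 0.93 and did not pass (adjusted p = 0.131). Metalloproteinase genes were thus higher in 4 of 4 listed cases, with 3 past the threshold. Of all listed rows, 79.8% were higher and 27.6% rose. Cd55, which speeds the decay of complement convertases on the cell surface, rose by 2.22 ± 0.32 in the authors' deposited table (adjusted p = 1.04e-08). C1s1, a protease of the classical complement pathway, rose by 1.38 ± 0.33 in the authors' deposited table (adjusted p = 0.0118).

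Some genes of the same class encode proteins that modify or bind collagen; they are named here after their values were seen. Plod2, which hydroxylates collagen lysines, stood at 1.62 ± 0.42 in the authors' deposited table (adjusted p = 0.034). P4ha2, which hydroxylates collagen prolines, stood at 1.33 ± 0.34 in the authors' deposited table (adjusted p = 0.0319). Dcn, the small proteoglycan decorin, stood at 1.71 ± 0.43 in the authors' deposited table (adjusted p = 0.0287). The listed collagen gene itself, Col4a2, was at 1.03 in the authors' deposited table (adjusted p = 1). The inhibitor genes Serpine2, Serpinb2 and Serpinb8 were, in the authors' deposited table, at 2.30, 0.88 and 0.86, with no call (adjusted p = 0.241, 0.146 and 0.121).

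Growth factor and developmental signalling was higher in 36 of 39 rows (92.3%, beside 79.8% of all listed rows). Bmpr1a, a type I receptor for bone morphogenetic proteins, rose by 2.83 ± 0.31 in the authors' deposited table, a 7.13-fold difference (adjusted p = 1.51e-15). Ccnd2, the G1 cyclin D2, rose by 2.22 ± 0.25 in the authors' deposited table (adjusted p = 7.83e-15) and was the one listed gene of 21 fixed cyclin and CDK inhibitor genes. The inhibitor genes of the Cdkn2a locus, known Polycomb targets, were not listed. Peg10, a paternally expressed imprinted gene of retrotransposon origin, rose by 3.36 ± 0.73 in the authors' deposited table (adjusted p = 0.00217). Igf2bp3, a fetal RNA-binding protein gene, rose by 1.69 ± 0.28 in the authors' deposited table (adjusted p = 7e-07). Both Peg10 and Igf2bp3 are known mainly from fetal tissue and placenta.

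The small GTPase gene Mras rose by 2.10 ± 0.32 in the authors' deposited table (adjusted p = 2.84e-08). Ndrg2, a differentiation-associated gene, rose by 2.93 ± 0.49 in the authors' deposited table (adjusted p = 1.59e-06). Igfbp4, which binds insulin-like growth factors, rose by 1.06 ± 0.28 in the authors' deposited table (adjusted p = 0.0439), while the receptor gene Igf1r stood at 1.21 and did not pass (adjusted p = 0.427). The Wnt pathway ligand Wnt6 and receptor Fzd1 stood in the authors' deposited table at 1.07 and 1.16 (adjusted p = 0.0604 and 0.421). The TAM receptors Axl and Mertk, which clear apoptotic cells, stood in the authors' deposited table at 0.86 and 0.79 (adjusted p = 0.577 and 0.374). Rap2a, a Ras-related GTPase gene, was the member that fell, with -1.03 in the authors' deposited table (adjusted p = 0.0384).

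Of 27 neuronal and ion channel genes, 22 were higher (81.5%), near the 79.8% of all listed rows. On a fixed neuronal list of 67 genes, 6 of 6 listed genes rose, beside 27.6% of all listed rows. Clstn1, a synaptic cadherin family protein gene, rose by 2.68 ± 0.39 in the authors' deposited table (adjusted p = 1.04e-08). Nlgn2, an adhesion protein of inhibitory synapses, rose by 1.62 ± 0.29 in the authors' deposited table (adjusted p = 1.52e-05). Ntng2, an axon guidance netrin relative, rose by 1.51 ± 0.38 in the authors' deposited table (adjusted p = 0.0291). That list was written with earlier results of these data known, so its count is not independent support.

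Ion channel and transporter genes included the second highest fold change of all rows. Kcnn3, a calcium-activated potassium channel gene, rose by 5.13 ± 0.82 in the authors' deposited table (adjusted p = 3.78e-07). Slc1a2, the glial glutamate transporter, rose by 2.81 ± 0.58 in the authors' deposited table (adjusted p = 0.000933). Cacna1d, a pore-forming calcium channel subunit gene, rose by 1.35 ± 0.35 in the authors' deposited table (adjusted p = 0.0367). Trpm2, a calcium channel of phagocytes opened by oxidative stress, rose by 1.17 ± 0.28 in the authors' deposited table (adjusted p = 0.0158). Panx1, which releases ATP, was the gene of the neuronal and ion channel class that fell, with -1.02 in the authors' deposited table (adjusted p = 0.0287). The solute carrier gene Slc25a30, sorted under metabolism, also fell, with -1.09 in the authors' deposited table (adjusted p = 0.0219).

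Adhesion and cytoskeletal genes rose in 13 cases and fell in none, with 5 lower rows that did not pass. Fscn1, the actin bundler of filopodia and of mature dendritic cells, rose by 2.58 ± 0.32 in the authors' deposited table (adjusted p = 8.49e-12). The integrin genes Itga6 and Itgal, the latter the alpha chain of LFA-1, rose in the authors' deposited table by 1.07 and 0.82 (adjusted p = 0.00121 and 0.0301). Itga9 was higher still, at 2.35 ± 0.68 in the authors' deposited table, and did not pass (adjusted p = 0.12). Among junction genes, F11r (JAM-A), Nectin2 and the gap junction gene Gja1 rose in the authors' deposited table by 1.33, 1.13 and 1.13 (adjusted p = 0.000739, 3.63e-05 and 0.00458). Listed integrin genes were higher in 4 of 4 cases and past the threshold in 2, while 79.8% of all listed rows were higher.

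Iron and redox genes split between the lists, with 10 of 18 rows higher and 8 lower. Fth1, the ferritin heavy chain that stores iron, rose by 4.24 ± 0.80 in the authors' deposited table (adjusted p = 7.34e-05); it has processed pseudogenes, so its reads may be shared. Cp, the ferroxidase ceruloplasmin, rose by 1.503 ± 0.19 in the authors' deposited table (adjusted p = 8.34e-12). Ncoa4, the receptor that delivers ferritin to lysosomes, and Flvcr1, a haem exporter, were lower, at -1.30 and -0.87 in the authors' deposited table, and did not pass (adjusted p = 0.154 and 0.126). The iron transport genes Trf and Slc39a14 were higher, at 0.88 and 0.85 in the authors' deposited table, and did not pass (adjusted p = 0.174 and 0.456). Of the iron genes named here, Fth1 and Cp rose, and none fell past the threshold.

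Of 36 fixed antioxidant and stress response genes 5 were listed, 1 higher and 4 lower, and 1 fell. Of all listed rows, 79.8% were higher and 5.57% fell. Prdx1, a peroxiredoxin, fell, with a log2 fold change of -0.90 in the authors' deposited table (adjusted p = 0.00914). Cat, Gclm and Gstm1, which encode catalase, a subunit of the glutathione-synthesis enzyme and a glutathione transferase, stood, in the authors' deposited table, at -0.77, -0.78 and -0.90 (adjusted p = 0.0547, 0.133 and 0.0533). None of these 3 passed. Sesn1, a stress-induced sestrin, rose by 0.92 ± 0.23 in the authors' deposited table (adjusted p = 0.0193). Gstt1 and Gstp2, which encode other glutathione transferases, were higher, in the authors' deposited table at 0.83 and 0.79, and did not pass (adjusted p = 0.12 and 0.807). Cyp1b1, a cytochrome P450 of the aryl hydrocarbon receptor response, rose by 1.96 ± 0.47 in the authors' deposited table (adjusted p = 0.0147).

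Of the metabolic genes, 7 of 32 rose and 3 fell. Apoe, the lipid carrier that macrophages secrete, rose by 3.31 ± 0.51 in the authors' deposited table, a 9.93-fold difference (adjusted p = 5.93e-08). Ldhb, the lactate dehydrogenase chain that favours pyruvate formation, rose by 1.63 ± 0.29 in the authors' deposited table (adjusted p = 2.16e-05). Rragd, a GTPase that signals amino acids to mTORC1, rose by 1.20 ± 0.29 in the authors' deposited table (adjusted p = 0.0193). Lipa, the lysosomal acid lipase, fell, with a log2 fold change of -1.01 in the authors' deposited table (adjusted p = 0.049), close to the threshold. Ch25h, which makes 25-hydroxycholesterol and neighbours Lipa, was higher, at 0.96 in the authors' deposited table (adjusted p = 0.736). Dhrs9, a retinol dehydrogenase family gene, fell, with a log2 fold change of -1.09 in the authors' deposited table (adjusted p = 0.00945).

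Of the 7 rows of the translation class, 2 fell and 5 did not pass. Eif4e, the cap-binding initiation factor, fell, with a log2 fold change of -2.07 in the authors' deposited table (adjusted p = 0.00134). Eif3j1, a subunit of initiation factor 3, fell, with a log2 fold change of -0.91 in the authors' deposited table (adjusted p = 0.0217). The ribosomal protein genes Rpl22 and Rps2 stood in the authors' deposited table at -0.89 and 1.57, and neither passed (adjusted p = 0.0533 and 0.588). Eif4e and Rps2 also have processed pseudogenes to which reads can be assigned.

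Some rows carry no gene function. The 35 predicted, unannotated or microRNA loci held 6 that rose and 2 that fell. Mir5107 rose by 1.08 ± 0.21 in the authors' deposited table (adjusted p = 0.000202), but lies inside Cd74, and Mir6381, at 1.07 in the authors' deposited table (adjusted p = 0.0956), lies inside Gbp2. Mir3064 and Mir7115, inside Ddx5 and Arrb2, which are not listed, were higher, in the authors' deposited table at 0.97 and 0.81, and did not pass (adjusted p = 0.624 and 0.968). The libraries were made from mRNA, so these rows are no measure of a mature microRNA, and reads of a host transcript and of a microRNA precursor cannot be told apart. Tmem176a and Tmem176b, adjacent genes of intracellular ion channels that dendritic cells express, rose in the authors' deposited table by 1.93 and 2.09 (adjusted p = 1.5e-09 and 1.12e-13).

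Few markers of other cell types were listed, but few genes of any kind were (282 of 17492 protein-coding genes with a promoter in RefSeq). The counts are thus not read as a lack of such markers. None of 15 B cell, 14 mast cell and 24 erythroid, megakaryocyte and progenitor markers was listed. Single genes were listed from the T and NK cell (Il7r of 18), neutrophil (Mcemp1 of 22), dendritic cell (Fscn1 of 20), osteoclast (Mmp9 of 12), stromal (Dcn of 16) and endothelial or epithelial lists (Eng of 15). Of those, Il7r and Mcemp1 fell and Fscn1, Mmp9 and Dcn rose; the part of other cells in the results was not tested. Of 30 monocyte and macrophage identity genes 6 were listed, of which 3 rose (F13a1, Cx3cr1 and Ly6c2) and 2 fell (Lyz1 and Lyz2). Of all listed rows, 27.6% rose and 5.57% fell. In these bulk samples a change in the number of cells of a type and a change in RNA per cell cannot be told apart.

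Listed genes that neighbour each other mostly pointed the same way. Of 342 listed protein-coding genes, 61 lay in 26 runs with at most 1 unlisted protein-coding gene between members. All members were higher in 22 runs and lower in 3, and the remaining run, Ch25h and Lipa, was mixed. The runs include Gbp5, Gbp7, Gbp3 and Gbp2 on chromosome 3, Ly6i, Ly6c1 and Ly6c2 on chromosome 15, and Rnf144a, Rsad2 and Cmpk2 on chromosome 12. Many runs are families of related genes, whose reads may be shared between copies, and most listed rows are higher in any case.

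PRC2 is best known for acting at promoters rich in CpG dinucleotides, so the base composition of the listed promoters was described. The 300-base RefSeq window was found for 282 of 342 protein-coding listed genes (82.5%). The observed over expected CpG ratio exceeded 0.6, a common mark of CpG islands, in 89 of 223 higher genes (39.9%, 95% Wilson interval 33.7 to 46.5) and in 31 of 59 lower genes (52.5%, 40.0 to 64.7). Over all protein-coding promoters in the table the share was 47.1%. The intervals of the higher and the lower genes overlap. The share differed between classes, with 65.6% of 32 chromatin and transcription factor promoters above 0.6 and 13.9% of 36 chemokine, cytokine and immune receptor promoters. A high share was not particular to the chromatin class. Among other and less characterised genes the share was 67.9% of 28 promoters, and among growth factor genes 64.3% of 28. The share was 3.57% of 28 interferon-inducible promoters, whose genes were all higher, and 100% of 6 translation promoters. A window was found for 77.8% of the protein-coding interferon-inducible genes and 71.8% of the growth factor genes, so their shares may not describe the whole classes.

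**Figure D4:**
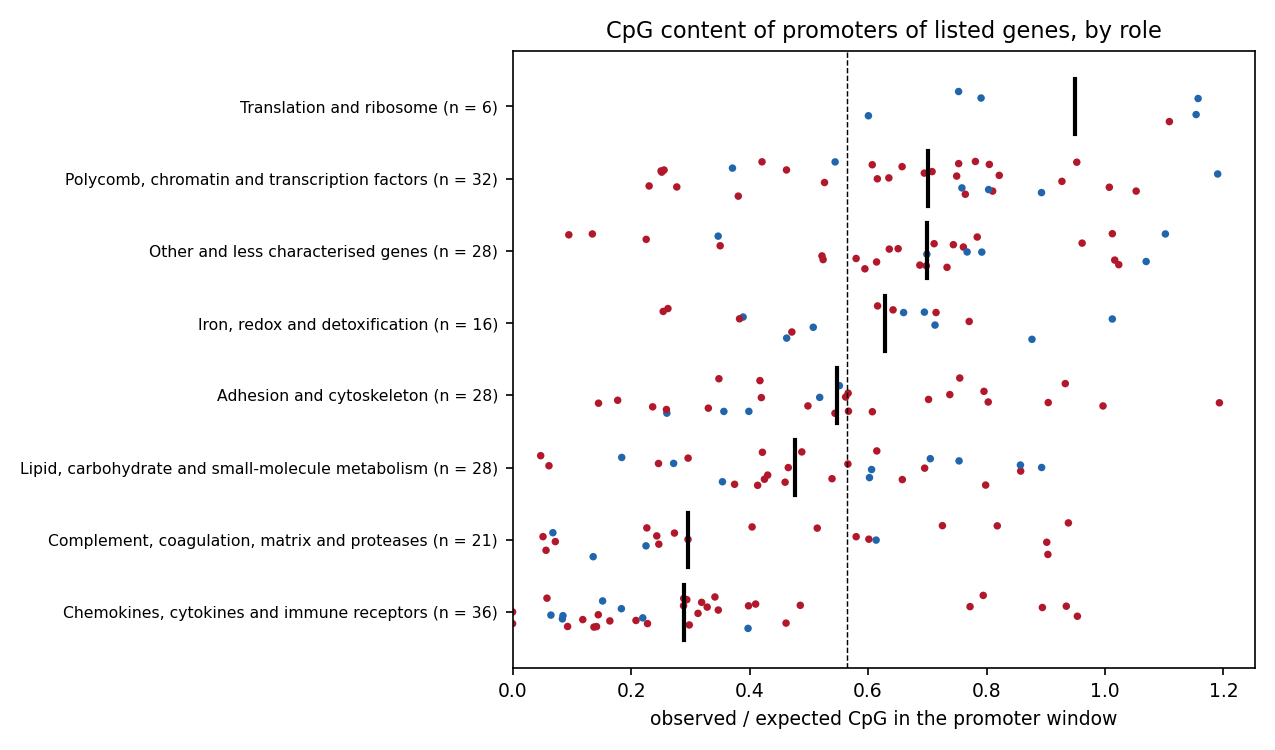
Points are the observed over expected CpG ratio of the 300-base promoter window of listed genes by role class; red genes were higher, blue genes lower, black bars are class medians and the dashed line is the median of all protein-coding promoters, 0.564. Chromatin and transcription factor genes lie mostly above that line, and chemokine, cytokine and immune receptor genes mostly below it. Only protein-coding genes are drawn, and the interferon-inducible, growth factor, neuronal, MHC and unannotated classes are left out. In those classes a window was found for 66.7% to 77.8% of the protein-coding genes, a smaller share than in the classes drawn.

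Genes that rose span the whole range, and 3 of them are shown for that reason: Cxcl13, which has the lowest adjusted p, and Bmpr1a and Clstn1, which passed in all 3 states. Cxcl13 has 2 CpG dinucleotides in the 250 bases before its start, while Bmpr1a has 36 and Clstn1 has 38. Class does not fix the count, since the first of 2 RefSeq windows of Sall2, a transcription factor gene that rose, has 0. Averaged over both windows, the CpG ratio before the start of Sall2 was 0.126. CG is in capitals (RefSeq, GRCm38.p6; Cxcl13 at chr5:95956689-95956938 plus, Bmpr1a at chr14:34502547-34502796 minus, Clstn1 at chr4:149586218-149586467 plus).
Cxcl13: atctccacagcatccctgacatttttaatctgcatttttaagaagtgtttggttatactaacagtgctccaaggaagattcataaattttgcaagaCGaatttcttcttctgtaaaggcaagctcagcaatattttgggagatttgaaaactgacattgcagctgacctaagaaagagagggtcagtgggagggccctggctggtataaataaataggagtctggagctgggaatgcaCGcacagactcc
Bmpr1a: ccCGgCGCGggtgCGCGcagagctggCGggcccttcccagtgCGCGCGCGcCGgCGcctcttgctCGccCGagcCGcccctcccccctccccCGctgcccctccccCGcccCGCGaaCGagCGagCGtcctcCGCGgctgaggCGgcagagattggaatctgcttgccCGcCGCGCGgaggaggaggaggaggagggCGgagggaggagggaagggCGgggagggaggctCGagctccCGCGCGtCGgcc
Clstn1: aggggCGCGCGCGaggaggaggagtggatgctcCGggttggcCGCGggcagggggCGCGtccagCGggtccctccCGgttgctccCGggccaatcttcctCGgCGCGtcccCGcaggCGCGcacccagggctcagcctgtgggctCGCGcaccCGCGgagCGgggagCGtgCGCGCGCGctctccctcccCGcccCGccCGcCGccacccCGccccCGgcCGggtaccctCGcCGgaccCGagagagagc
No histone mark was measured in the files used here, so whether PRC2 occupied any of these promoters in the macrophages is not known.

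The lists of the other states show what was shared with the LPS primed state. With unstimulated cells 73 genes were shared, 19.4% of the primed list and 32.2% of the other, and 69 of them had the same direction. With LPS tolerant cells, which were rested for 48 h after priming and given LPS again at 10 ng/ml, 113 symbols were shared, 30.0% of the primed list and 27.1% of the 417 distinct symbols of the other. Of these, 111 were listed once in each state with the same identifier, and 104 of the 111 had the same direction. Each state has its own libraries, but the same replicate numbers recur in every state (WT 1, 3 and 4, EED KO 1, 2 and 3), so the states may share mice or cultures. A total of 40 genes were listed in all 3 states, and 8 passed in each of them: Bmpr1a, Cd55, Clstn1, Igf2bp3, Kctd17 and Plxdc2, which were higher, and Eed and Lyz2, which were lower.

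The remaining 231 genes were listed in the primed state and in neither other state, 178 higher and 53 lower, with 36 that rose and 13 that fell. They are 61.3% of all listed rows. By class the share ran from 10.0% (1 of 10 MHC and related genes) and 34.6% (9 of 26 complement, coagulation, matrix and protease genes) to 77.1% (27 of 35 unannotated loci) and 79.5% (31 of 39 interferon-inducible genes), and the other 9 classes lay between 40.7% and 72.5%. Among them were Kcnn3, Fam171b, Fth1, Apoe, Myb, Tnrc18 and Eif4e. A gene that another list lacks has no value there, so these genes are not shown to be particular to the primed state.

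A difference in effect could be tested where a gene was listed in both states. Of 73 genes shared with unstimulated cells, 6 differed at an adjusted p under 0.05 (8.22%), and of 111 compared with tolerant cells, 8 did (7.21%). With SEs from the t quantile the counts were 26 and 49. That quantile makes every SE smaller, most of all where the p-value is very low. The deposited p-values are not known to come from such a t test, so those counts are not read as further differences. Among genes past an adjusted p of 0.05 in both states the counts were 0 of 14 and 0 of 37 by the same normal test (0 and 3 at an unadjusted p under 0.05). Of the 6 and the 8, 4 and 7 were listed in opposite directions. These are all the shared genes with opposite directions, and since each listed row already had an unadjusted p under 0.05 and a fold change bound, such a gene could hardly miss the threshold. The effect of EED loss on Fscn1 was larger in the primed than in the tolerant state, with log2 fold changes of 2.58 and 1.30 in the authors' deposited table (difference 1.28, adjusted p = 0.0368; 0.098 among genes past the threshold in both states). Ly6c1 was at 1.98 in the primed and 7.51 in the unstimulated state in the authors' deposited table (difference -5.53, adjusted p = 0.0052), and had not passed in the primed state. Saa2, an acute-phase gene, was at 1.95 in primed and -2.21 in tolerant cells in the authors' deposited table (difference 4.16, adjusted p = 0.0102), and passed in neither (adjusted p = 0.396 and 1). The test uses approximate SEs, treats the states as independent and, because a listed gene must have passed a fold change bound in both states, it sees no gene with a small effect in one of them.

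**Figure D5:**
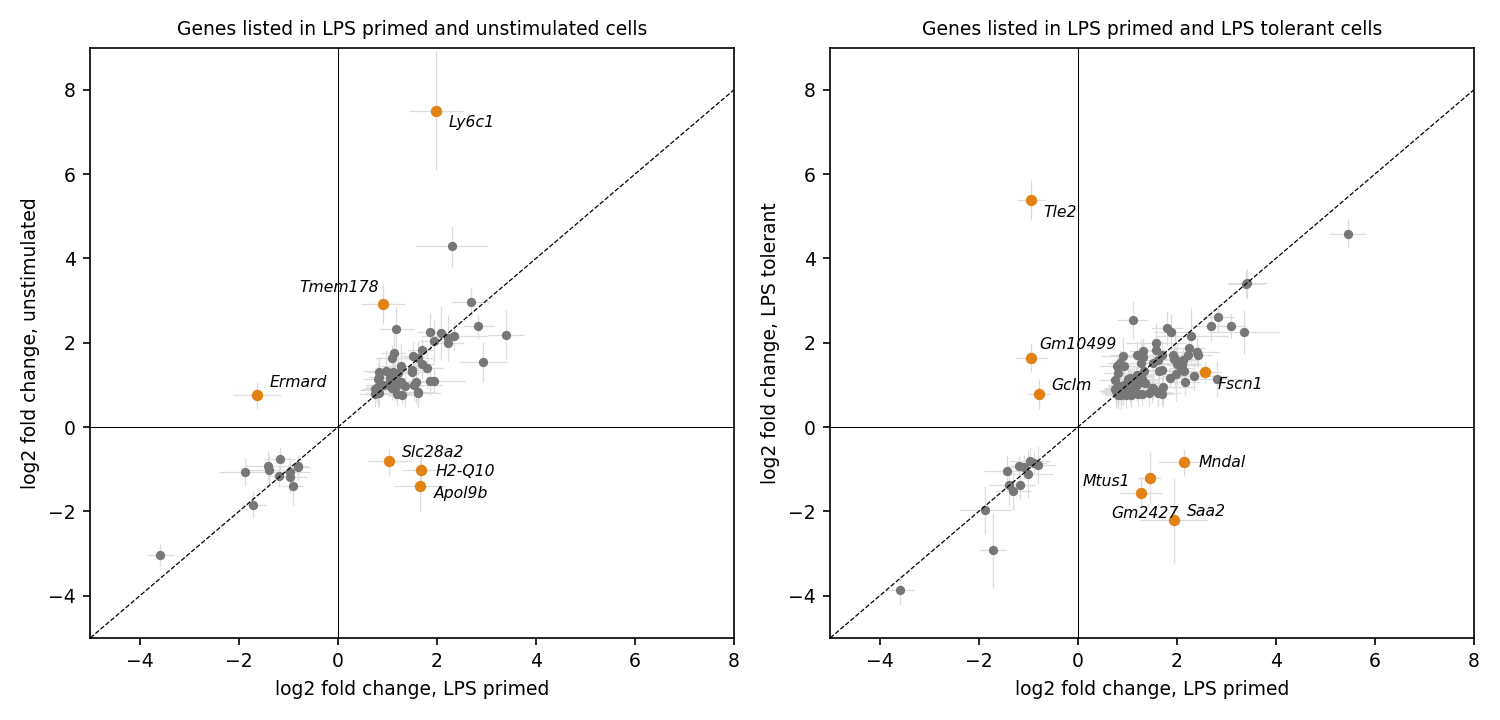
Each point is a gene listed in LPS primed cells (x axis, log2 fold change of EED KO against WT) and in unstimulated (left) or LPS tolerant cells (right, y axes), with bars of 1 approximate SE; orange points differ between the states at an adjusted p under 0.05, the dashed line marks equal effects, and H2-Q1 is left out. Most points lie near the dashed line in the upper right, and 4 orange points on the left and 7 on the right lie in the quadrants of opposite direction.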

How the data were processed

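RNA-seq of mouse macrophages was deposited as lists of selected genes, with a log2 fold change, a p-value and an adjusted p-value (FDR) per row; the log base is not stated and was taken as 2. Per the submitters' processing notes, HISAT2, R 4.0.3, edgeR and the GRCm39 build were used; roles, other settings and the filter are not given there. Per the labels' protocols, libraries were stranded mRNA libraries; whether counting used strand is not stated. The files used here hold no values per library, so depth is unknown and no model was fitted. The direction, EED KO against WT, was read from the lower position of Eed in each state.

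The deposited p-values adjusted by the authors imply about 379717 tests for primed cells (41 of 63 rows at full precision gave whole ranks within 1e-06), of which at least 1109 passed 0.05 (0.292%), against 125 listed rows; a row may therefore stand for part of a gene. Approximate SEs are the absolute log2 fold change over the normal quantile of the p-value. Differences between states used these SEs in a two-sided normal test with Benjamini-Hochberg adjustment, tested on simulated data. Promoters came from RefSeq tables (GRCm38.p6), matched by symbol for 301 of 377 rows. Python 3.11.15, pandas 2.3.3, scipy 1.17.1 and matplotlib 3.10.9 were used. Wilson intervals cover counting error only. Named genes were called ones with a known role, up to 4 per list or family by lowest adjusted p, and those that differed between states; genes named outside that rule were chosen after their values were seen. Members, gene lists and role classes were chosen with earlier results of these data known. Some listed genes are not reported here.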

Additional observations from a re-analysis of the deposited data

Results flagged for a closer look

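These genes differed in effect between states, by a test of the difference of the log2 fold changes in the authors' deposited table (primed minus other, adjusted p over the shared genes). After each difference the adjusted p of the gene's own effect is given in the primed and then in the other state. Against unstimulated cells, H2-Q10 (difference 2.68, adjusted p = 2.1e-06; own effects 0.00723 and 0.343), Apol9b (3.05, adjusted p = 0.00303; 0.19 and 1) and Slc28a2 (1.85, adjusted p = 0.0116; 0.865 and 1) were in the higher list of the primed and the lower list of the unstimulated state. Ermard (-2.39, adjusted p = 0.00117; 0.139 and 1) was listed the other way. Ly6c1 (-5.53, adjusted p = 0.0052; 0.088 and 0.000456) and Tmem178 (-2.004, adjusted p = 0.0236; 1 and 2.94e-06) were in both higher lists, with the smaller value in the primed state.

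Against LPS tolerant cells, Gm2427 (2.82, adjusted p = 1.91e-05; 0.297 and 0.0148), Mndal (2.98, adjusted p = 1.91e-05; 0.0129 and 0.698), Mtus1 (2.65, adjusted p = 0.00101; 4.61e-07 and 1) and Saa2 (4.16, adjusted p = 0.0102; 0.396 and 1) were in the higher list of the primed and the lower list of the tolerant state. Tle2 (-6.33, adjusted p = 7.11e-28; 0.161 and 1.03e-24), Gm10499 (-2.59, adjusted p = 1.81e-06; 0.354 and 0.000852) and Gclm (-1.57, adjusted p = 0.00445; 0.133 and 1) were listed the other way. Fscn1 (1.28, adjusted p = 0.0368; 8.49e-12 and 0.00149) was in both higher lists and passed in both states. Of the genes listed in opposite directions, none passed in both states, and their difference was nearly fixed by the selection of the rows. A row may stand for a different part of a gene in each state, which the lists do not show; its part in these differences was not tested.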

How the results depend on the processing

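Depth, levels and the spread within a group are not in the lists, which limits every value to the authors' own test. At an adjusted p under 0.01 the genes that fell numbered 11 rather than 21. With SEs from the t quantile, 26 genes differed between primed and unstimulated cells rather than 6, and 49 between primed and tolerant cells rather than 8. These larger counts come with SEs that shrink strongly at very low p-values, and are not read as further differences. Among genes past an adjusted p of 0.05 in both states, the same normal test found 0 of 14 (0 at an unadjusted p under 0.05) and 0 of 37 (3 at an unadjusted p under 0.05); there Fscn1 had an adjusted p of 0.098. Counts under the other alternatives, including 1 chosen after seeing the data (microRNA rows inside another listed gene left out), stayed within 1.5 times the main count. No paired analysis was possible because the files used here hold selected rows with no values per library; for the same reason leaving out each library was not run.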
